A study of Mus musculus with 8 samples.

Results

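The transcription factors that specify and maintain the hepatocyte lineage were examined in mouse fetal livers with and without EKLF, the erythroid transcription factor encoded by Klf1. The group held 8 genes, Hnf4a, Foxa1, Foxa2, Foxa3, Onecut1, Prox1, Tbx3 and Nr1h4. It was formed by name, taking every probe set whose only gene symbol is 1 of these, which gave 8 of 18193 named genes and 18 of the 45101 probe sets on the array. E14.5 (embryonic day) livers of 4 homozygous Eklf knockout (KO, Eklf-/-) and 4 wild-type (WT) fetuses were taken whole, with no culture and no sort, and each gave 1 Affymetrix mouse genome array. The methods give the KO line as B6, obtained from a BAC carrying an engineered Eklf locus together with E2A-Cre mice, and no other allele or treatment is given for either group. All values are MAS5.0 signals, a brightness on a linear scale that compares a probe set between arrays but not with another probe set.

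In the liver bud, FOXA factors open the chromatin of liver genes, and HNF4A, a nuclear receptor, then drives the broad hepatocyte program together with ONECUT1 (HNF6), HHEX and C/EBP factors. PROX1 and TBX3 act early, when hepatoblasts leave the bud and expand. NR1H4 (FXR) is the bile acid receptor of hepatocytes. At E14.5 the liver is also the main site of erythropoiesis, so whole-organ RNA comes from erythroid cells, hepatoblasts, endothelium, mesenchyme and macrophages together. In such bulk RNA, fewer cells of a type and less RNA per cell cannot be told apart.

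The 8 factors did not move together between KO and WT livers. Prox1 and Tbx3 were higher in KO, Nr1h4 was lower, and the brightest probe sets of Hnf4a, Foxa1, Foxa2 and Foxa3 did not pass the test, while another probe set of Hnf4a was higher. Onecut1 was below a signal of 100 in all 8 arrays. Of the 18 probe sets, 12 had a KO or a WT mean above 100 and were tested, and 6 of these passed limma at a Benjamini-Hochberg adjusted p under 0.05 over all 23379 probe sets tested. That is 5 higher and 1 lower, in 4 genes. The background was large: 52.2% of all tested probe sets passed, 34.4% higher and 17.7% lower in KO, so the members' count lay near it. The median log2 difference (KO minus WT) was 0.22 over the tested member probe sets and 0.17 over all tested probe sets. Of the 12 tested, 3 passed the minimum only through their KO mean (both tested Prox1 probe sets and Tbx3 1437479_x_at).

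The promoter regions of the member with the largest rise and of the member that fell are shown because EKLF binds CACCC boxes in DNA. RefSeq (build GRCm38.p6) matched 7 of the 8 members, with 11 windows of 250 bases ending just before a start site; Tbx3 was not matched. Capitals mark CACCC on the printed strand or its complement GGGTG, both given 5′ to 3′ on the gene's strand.
Prox1, chr1:190170828-190171077, minus strand: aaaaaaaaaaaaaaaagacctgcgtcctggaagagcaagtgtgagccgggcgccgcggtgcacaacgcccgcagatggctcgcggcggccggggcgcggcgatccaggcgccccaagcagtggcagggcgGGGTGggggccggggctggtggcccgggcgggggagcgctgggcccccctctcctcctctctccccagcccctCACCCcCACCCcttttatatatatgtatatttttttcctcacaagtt
Nr1h4, chr10:89506659-89506908, minus strand: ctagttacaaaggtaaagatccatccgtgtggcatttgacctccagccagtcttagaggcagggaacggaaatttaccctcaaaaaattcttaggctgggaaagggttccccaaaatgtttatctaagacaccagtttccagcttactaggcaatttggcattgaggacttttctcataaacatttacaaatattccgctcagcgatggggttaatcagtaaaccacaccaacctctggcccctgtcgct
This Prox1 window holds the motif 3 times and the Nr1h4 window 0 times. A further Prox1 window, at another start site, holds it 0 times. Among the other members, the Hnf4a windows hold 3 and 5 matches, Onecut1 3, Foxa3 2, Foxa1 1, and the Foxa2 windows 2, 2 and 0. At least 1 match is common: it was found in 8 of the 11 member windows and in 52.0% of all 32851 windows of this length, and 3 or more matches in 6.53% of them. A match is only a run of letters and does not show binding.

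The arrays were checked before the members were compared. Klf1 was 9.81-fold lower in KO (log2 difference -3.29, SE 0.099, adjusted p = 5.9e-07 from limma, 1 probe set), and none of the sources used here says whether it targets the part of the gene that was removed. The labelled tissue showed in the hepatocyte products: 16 of 16 genes such as Alb and Afp were above 100 in every array, at or above percentile 96.3 of the probe sets of an array. Their mean log2 signal was 13.54 to 13.70 in KO and 13.97 to 14.11 in WT arrays. The median signal of an array was 96.7 to 114 in KO and 79.5 to 84.1 in WT, with the trimmed mean set to the same value in all. Median array correlations of log2 signal were 0.962 within KO, 0.976 within WT and 0.879 between KO and WT. The signal of the 3′ minus the 5′ probe set of Actb, a sign of RNA integrity and labelling, was 0.49 to 0.61 on the log2 scale in KO and 0.76 to 0.93 in WT. The groups did not overlap, and its part in the differences below was not tested. KO arrays differed among themselves in Hspa1b, a heat shock gene, with log2 signals of 10.78, 13.08, 11.47 and 12.93 in replicates 2 to 5, against 7.43 to 7.98 in WT. Xist and the Y-linked Kdm5d set WT replicate 1 apart from the other 7 arrays. The sample titles carry 1 code for all KO arrays and another for all WT arrays, and what the codes stand for is not stated, so anything they mark cannot be told apart from genotype.

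Each difference was also taken under other scalings of the arrays, namely quantile normalization, the 75th percentile, hybridisation controls and poly-A controls. These moved the median of all tested probe sets to -0.0075, -0.098, 0.92 and 0.24. The split of called probe sets moved with them. It was 8049 higher and 4146 lower with the deposited scaling, 5608 and 5364 after quantile normalization, 5213 and 7230 after the 75th percentile, and 18139 and 603 after the hybridisation controls.

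HNF4A is the nuclear receptor that hepatocyte identity depends on, and its gene was measured by 4 probe sets that did not behave alike. On the brightest, 1427001_s_at, the signals were 1549, 972, 1489 and 1374 in KO replicates 2 to 5, against 1368, 1446, 1573 and 1712 in WT replicates 1 to 4. The groups overlapped, and the log2 difference of -0.20 had a 95% interval of -0.57 to 0.17 (limma, adjusted p = 0.33). On 1427000_at the signals were 707, 894, 594 and 867 in KO and 967, 992, 749 and 1020 in WT. These groups also overlapped, with a difference of -0.29 and an interval of -0.67 to 0.08 (adjusted p = 0.16, limma). Both of these turned sign when arrays were scaled to the hybridisation controls, to 0.55 and 0.46.

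A different picture came from Hnf4a 1421983_s_at. Its signals were 529, 706, 596 and 593 in KO, against 355, 465, 341 and 410 in WT, and all KO values exceeded all WT values. It rose 1.55-fold (log2 difference 0.63, SE 0.14, adjusted p = 0.0051, limma). The call was lost after quantile normalization (0.36, adjusted p = 0.052). The dimmest probe set, 1450447_at, had 145, 174, 284 and 140 in KO and 142, 183, 162 and 159 in WT, where the KO values enclosed the WT values (difference 0.15, SE 0.22, adjusted p = 0.60, limma).

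Within an array, the 1421983_s_at signal can be set against the other Hnf4a probe sets, a log2 ratio that no single factor applied to an array moves. Over 1427001_s_at it was -1.55, -0.46, -1.32 and -1.21 in KO, against -1.94, -1.64, -2.21 and -2.06 in WT. Over 1427000_at it was -0.42, -0.34, 0.0051 and -0.55 in KO, against -1.44, -1.09, -1.14 and -1.32 in WT. In both ratios the KO arrays all stood above the WT arrays, with mean differences of 0.83 and 0.92. Quantile normalization can move the ratios. After it the difference was 0.36 for 1421983_s_at, -0.24 for 1427001_s_at and -0.45 for 1427000_at. The probe sets of 1 gene thus changed unequally. These ratios were formed after the values had been seen and carry no test. Hnf4a is transcribed from separate promoters into several isoforms, and none of the sources used here says which transcripts each probe set measures.

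The FOXA proteins are forkhead pioneer factors that open liver enhancers, and none of the 3 genes passed the test with the deposited scaling. Foxa1, on 1418496_at, had signals of 523, 315, 554 and 306 in KO, against 402, 408, 427 and 478 in WT. The KO arrays lay on both sides of the WT arrays, replicates 2 and 4 above all of them and replicates 3 and 5 below all of them. The SD of log2 signal was 0.46 in KO and 0.11 in WT (n = 4 each), and the difference was -0.064 with an interval of -0.55 to 0.42 (adjusted p = 0.81, limma). Its sign was positive under the hybridisation and poly-A controls, and Foxa1 was called higher with the former (0.68, adjusted p = 0.026, limma). The KO arrays with low Foxa1 are those with the higher Hspa1b signals, and the part of that in the spread was not tested.

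Foxa2, on 1422833_at, had signals of 253, 259, 330 and 217 in KO, against 214, 249, 266 and 261 in WT. The groups overlapped, with a difference of 0.085, an interval of -0.24 to 0.41 (adjusted p = 0.64, limma) and a negative sign after quantile normalization or the 75th percentile. Foxa3, the family member that stays highly expressed in mature hepatocytes, had 653, 760, 630 and 1009 on 1431900_a_at in KO, against 561, 567, 627 and 679 in WT. Its KO values were mostly the higher ones, but KO replicates 2 and 4 lay below WT replicate 4. The difference was 0.30 with an interval of -0.062 to 0.67 (adjusted p = 0.14, limma), positive under every scaling. With the hybridisation controls Foxa2 and Foxa3 were both called higher (0.83 and 1.05, adjusted p = 0.0013 and 2.8e-04, limma).

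ONECUT1, a cut-homeodomain factor of hepatoblasts and bile duct cells, was dim on both of its probe sets. Signals on 1421447_at were 20.6 to 45.7 in KO and 11.6 to 37.6 in WT, and on 1450252_at 7.62 to 36.2 in KO and 5.22 to 21.0 in WT. All 16 values were below 100 and the groups overlapped on both probe sets, so Onecut1 was not tested and its level cannot be read from these arrays. Its paralog Onecut2 was measurable and rose in KO, as described with the other factors.

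Prox1 had the largest difference of the group. PROX1 is a homeodomain factor that hepatoblasts need to migrate out of the liver bud, and it is also the master factor of lymphatic endothelium. On 1437894_at the signals were 397, 348, 398 and 327 in KO, against 66.3, 93.5, 118 and 71.9 in WT. The lowest KO array was well above the highest WT array, and 3 of the 4 WT arrays were below 100. With the deposited scaling Prox1 rose at least 3.66-fold, taking the WT mean at 100 (measured log2 difference 2.10, SE 0.19, adjusted p = 4.6e-05, limma).

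The other Prox1 probe sets lay the same way. On 1421336_at the signals were 104, 162, 141 and 95.1 in KO, against 47.1, 46.3, 59.0 and 48.4 in WT, again with no overlap. This is a rise of at least 1.23-fold (difference 1.30, SE 0.18, adjusted p = 5.3e-04, limma). On 1457432_at, too dim for the test in both groups, the signals were 60.9, 49.9, 103 and 25.5 in KO, against 2.44, 1.01, 1.77 and 19.3 in WT, and here too the groups did not overlap. Both tested Prox1 probe sets were higher in KO under every scaling, from 1.75 (quantile) to 2.85 (hybridisation controls) on the brightest.

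TBX3, a T-box factor that keeps hepatoblasts proliferating and restrains their turn to bile duct fate, also rose. Tbx3 1448029_at had signals of 288, 301, 263 and 305 in KO, against 180, 166, 145 and 170 in WT. Both groups were tight and did not overlap, and the rise was 1.75-fold (log2 difference 0.81, SE 0.11, adjusted p = 3.6e-04, limma). On 1437479_x_at the signals were 162, 105, 133 and 159 in KO and 56.4, 76.2, 56.4 and 94.5 in WT, with no overlap and a rise of at least 1.38-fold (difference 0.99, SE 0.21, adjusted p = 0.0042, limma). The suffix x marks probe sets with probes that can also match other transcripts.

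Both tested Tbx3 probe sets were higher under every scaling, the brightest from 0.39 (quantile) to 1.56 (hybridisation controls). The other 3 Tbx3 probe sets had means below 100 in both groups and overlapped between them. Their signals were 14 to 56 in KO and 15 to 127 in WT on 1439567_at, 11 to 67 in KO and 4.65 to 64.8 in WT on 1445757_at, and 2.69 to 19.3 in KO and 3.08 to 32.3 in WT on 1444594_at.

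NR1H4, the receptor through which bile acids repress their own synthesis and drive their export, was the member that fell. Its only probe set, 1419105_at, had signals of 122, 97.2, 117 and 75.7 in KO, against 178, 187, 202 and 196 in WT. All KO values were under the lowest WT value, and the KO arrays clustered around the minimum of 100. Nr1h4 was 1.88-fold lower in KO (log2 difference -0.91, SE 0.16, adjusted p = 0.0015, limma), and 5.25% of all tested probe sets had a more negative difference. The sign held under every scaling, but the call was lost with the hybridisation controls (-0.17, adjusted p = 0.41).

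**Figure D1:**
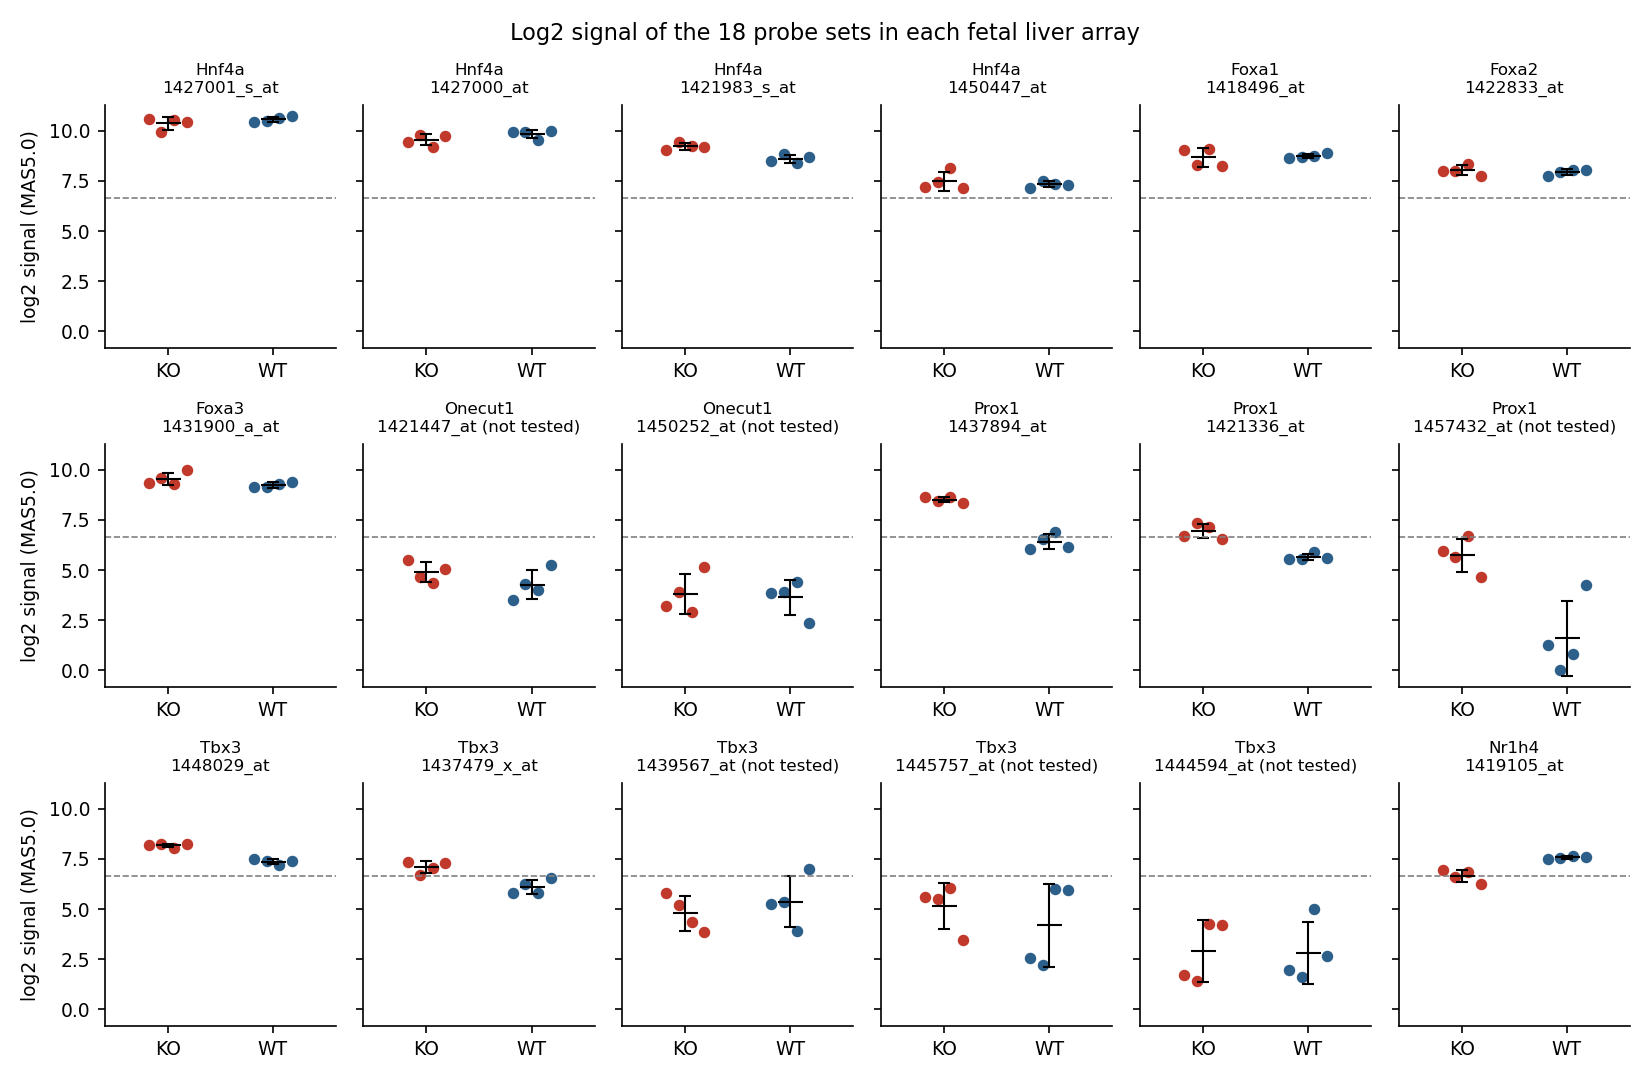
Log2 MAS5.0 signal of each of the 18 member probe sets, 1 panel each, with KO arrays left and WT arrays right. Dots are single arrays, bars are the mean ± SD of 4 arrays and the dashed line is log2 of a signal of 100. The groups are apart for the 3 Prox1 probe sets, Tbx3 1448029_at and 1437479_x_at, Hnf4a 1421983_s_at and Nr1h4, and Onecut1 lies below the line in all 8 arrays.

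Counted without a test, the groups did not overlap on 7 of the 18 member probe sets, 6 with KO above WT and 1 with KO below. Among the 12 tested it was 6, beside a background of 49.8% of all tested probe sets (32.4% above and 17.4% below). The plot of differences by scaling shows which of these rest on the scaling used.

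**Figure D2:**
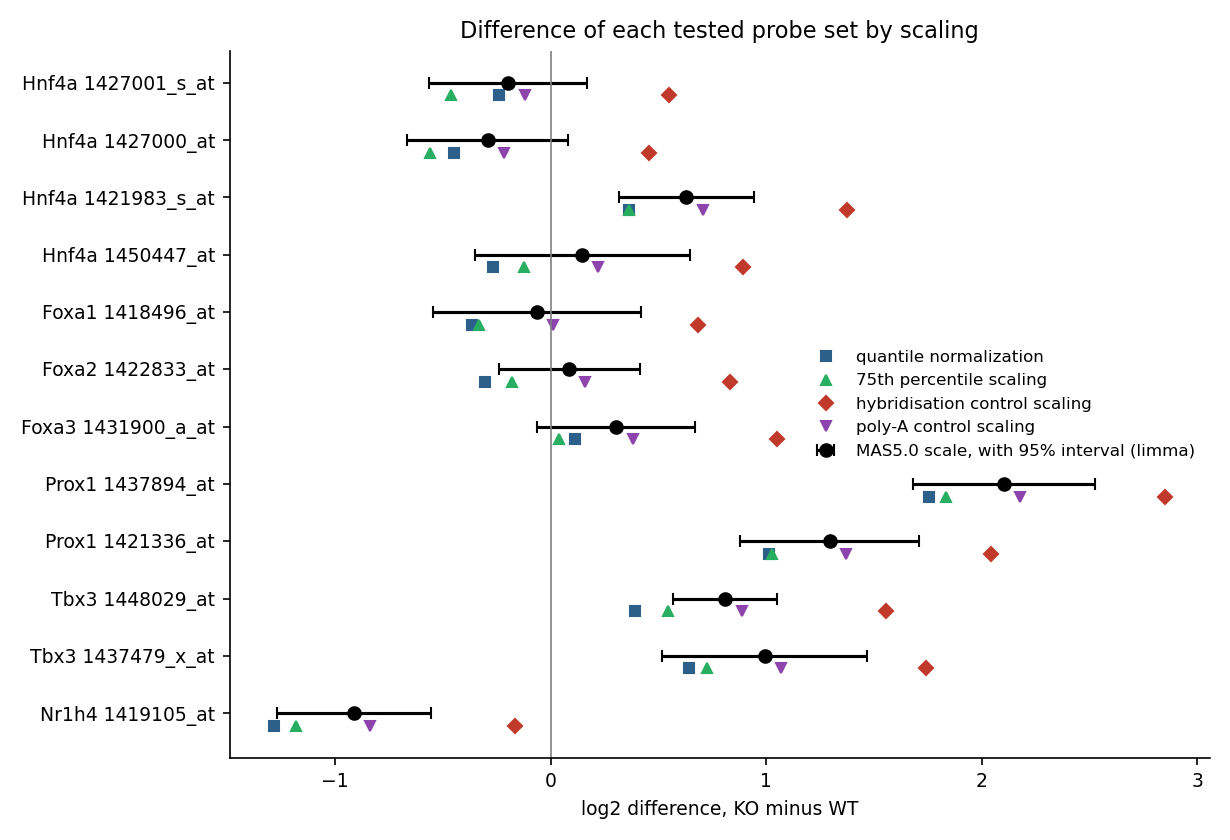
Log2 difference (KO minus WT) of the 12 tested member probe sets with the deposited scaling, with its 95% interval from limma, and the same difference under 4 other scalings as separate marks. Prox1 and Tbx3 stay above 0 and Nr1h4 below 0 under every scaling, whereas Foxa1, Foxa2 and 3 of the 4 Hnf4a probe sets change sign with it.

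The factors were then set against the secreted products of hepatocytes in the same array, which removes any single factor applied to a whole array. Quantile normalization is not such a factor, and the comparison was not repeated after it. The products themselves were mostly lower in KO: 11 of 16 fell, among them Apoa2 (-0.71, SE 0.12, adjusted p = 0.0012, limma) and Apoa1 (-0.70, SE 0.14, adjusted p = 0.0029), 1 rose (Serpinc1, antithrombin, 0.46, SE 0.090, adjusted p = 0.0031), and 4 did not pass. This split depends on the scaling, with 1 call, higher, after quantile normalization, 14 calls, all lower, after the 75th percentile, and 7 calls, all higher, after the hybridisation controls. Their summed signal was 219130 to 254513 in KO and 324720 to 345918 in WT. Products of this brightness lie near the top of the range of an array, where the highest signal was 32642 to 39185 in KO and 54914 to 60411 in WT.

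Relative to these products, 8 member probe sets passed limma, 7 higher and 1 lower in KO. Of all tested probe sets, 66% passed in the same way, 59.9% higher and 6.07% lower, so most of the array lay higher relative to the products. Prox1 1437894_at stood at -5.35 to -4.98 on this log2 scale in KO, against -8.06 to -7.09 in WT, a difference of 2.51 (SE 0.20, adjusted p = 1.5e-05). Tbx3 1448029_at stood at -5.58 to -5.31 in KO and -6.79 to -6.59 in WT, a difference of 1.22 (adjusted p = 2.6e-05). The groups were again apart for both, and the share of all tested probe sets apart on this scale is not given here. Foxa3 was now also apart, at -4.32 to -3.72 in KO and -4.97 to -4.58 in WT (0.71, SE 0.17, adjusted p = 0.0047). After quantile normalization the products had a median difference of -0.040. The brightest probe sets then differed by 1.75 for Prox1, 0.39 for Tbx3, 0.11 for Foxa3, -0.31 for Foxa2 and -1.28 for Nr1h4.

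Foxa2 passed with overlapping groups (0.49, adjusted p = 0.028), and this call was lost in 5 of 11 alternatives, among them leaving out KO replicate 3, KO replicate 4, WT replicate 1 or WT replicate 2 (adjusted p up to 0.084). Nr1h4 stood at -7.46 to -6.72 in KO and -6.63 to -6.31 in WT. It remained lower (-0.51, SE 0.18, adjusted p = 0.030), but this call was lost in 7 of 11 alternatives, among them leaving out KO replicate 3, WT replicate 2, WT replicate 3 or WT replicate 4 (adjusted p up to 0.088). The brightest Hnf4a probe set and Foxa1 did not pass (0.21, adjusted p = 0.28, and 0.34, adjusted p = 0.19, limma), while Hnf4a 1421983_s_at did (1.04, adjusted p = 3.7e-04).

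**Figure D3:**
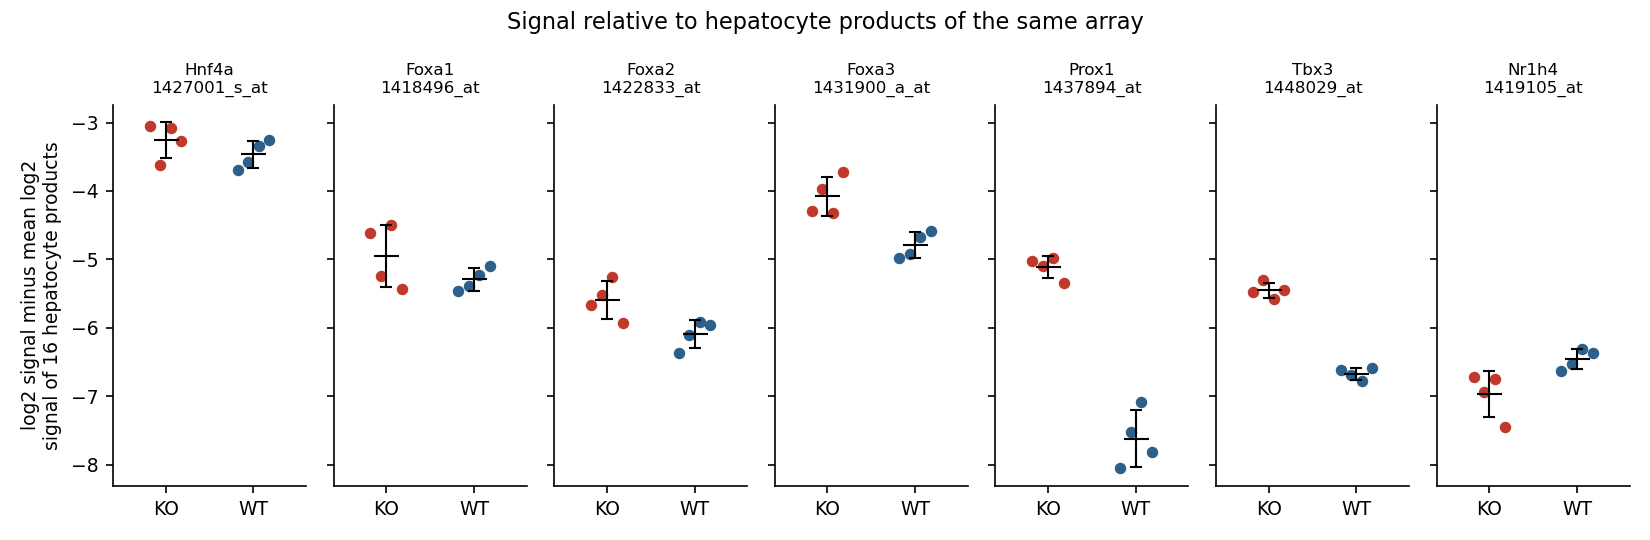
Log2 signal of the brightest tested probe set of 7 members minus the mean log2 signal of 16 hepatocyte products in the same array, with KO arrays left and WT arrays right of each pair and the mean ± SD of 4 arrays. KO and WT arrays are apart for Prox1, Tbx3, Foxa3 and Nr1h4, with Nr1h4 the lower one in KO. On this scale 59.9% of all tested probe sets were called higher in KO and 6.07% lower.

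Of 20 other transcription factors of the liver, 18 had a probe set of their own and 16 were tested on the brightest of them. In KO, 6 rose, 2 fell and 8 did not pass, with a median difference of 0.29 beside 0.17 for all tested probe sets. The split was 5 higher and 4 lower after quantile normalization, 4 higher and 3 lower after the 75th percentile, and 12 calls, all higher, after the hybridisation controls. Onecut2, the paralog of Onecut1, had 650, 565, 516 and 775 in KO, against 262, 257, 211 and 255 in WT, with no overlap and a 2.52-fold rise (1.34, SE 0.15, adjusted p = 1.5e-04). Cebpb, a leucine zipper factor of the acute phase response, had 1484, 2826, 1350 and 3562 in KO, against 847, 748, 733 and 779 in WT. KO replicates 3 and 5, the arrays with the higher Hspa1b signals, were the highest (1.45, SE 0.30, adjusted p = 0.0038).

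The other factors that rose were Gata6 (1.07), Atf5 (0.88), Gata4 (0.56) and Hhex (0.42), each with no overlap of the groups. Hhex was not called after the 75th percentile, nor Gata4 after that or quantile normalization. Creb3l3, a membrane-bound factor of hepatic lipid metabolism, fell (-0.47, SE 0.15, adjusted p = 0.027), with 514, 483, 670 and 678 in KO and 813, 769, 711 and 932 in WT. Sall4, a zinc finger factor of fetal hepatoblasts that is also expressed outside them, fell with overlapping groups (-0.46, SE 0.17, adjusted p = 0.050). Neither fall was called after either control scaling, and both had a positive sign with the hybridisation controls (0.28 and 0.29). Nr1i3 and Nr0b2 were below 100 in every array.

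Among 13 genes with known HNF4A or FOXA sites, 8 were tested, and 2 rose, 3 fell and 3 did not pass (median -0.33). The split was 2 higher and 5 lower after quantile normalization (median -0.75), 1 higher and 5 lower after the 75th percentile, and 4 higher and 1 lower with the hybridisation controls (median 0.41). Igfbp1, a secreted binding protein of insulin-like growth factors, had 20849, 31911, 29080 and 33152 in KO, against 11426, 8138, 8946 and 9487 in WT, a 3.00-fold rise (1.59, SE 0.17, adjusted p = 1.4e-04). Apob, the structural protein of lipoproteins, rose by 0.62 (SE 0.14, adjusted p = 0.0052), with 7533 to 8441 in KO and 4698 to 6824 in WT. The genes that fell were Cps1 and Otc, enzymes of the urea cycle, and F7, clotting factor VII. Cps1 had 54.6, 33.5, 49.5 and 54.6 in KO, against 180, 203, 137 and 259 in WT, at least 1.90-fold lower (-2.01, SE 0.23, adjusted p = 1.6e-04). It passed the minimum only through its WT mean.

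Otc fell by 1.04 (SE 0.21, adjusted p = 0.0033), with 1263, 633, 1081 and 767 in KO and 1953, 1910, 1726 and 1837 in WT. F7 differed by -0.87. Cps1 was lower and Igfbp1 and Apob were higher in sign under every scaling, while Otc and F7 lost their calls with the hybridisation controls and Apob with the 75th percentile. The 8 tested genes of this list lay on both sides, whereas the brightest Hnf4a and Foxa probe sets did not pass. Hepatocyte products such as Alb and Apoa1 were counted apart from this list, and 11 of those 16 fell with the deposited scaling.

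The bile acid genes were dim at this age. Of 10 genes, 3 were tested and all 3 were lower in KO, as were 17.7% of all tested probe sets. The remaining 7, Nr0b2 and Cyp7a1 among them, had means below 100 in both groups. Abcb11, the canalicular bile salt export pump and a known target of NR1H4, had 83.8, 89.6, 73.0 and 81.2 in KO, against 322, 203, 273 and 257 in WT. All 4 KO arrays were below 100 and all 4 WT arrays above 200, so Abcb11 passed the minimum only through its WT mean. With the deposited scaling it was at least 2.60-fold lower (-1.67, SE 0.15, adjusted p = 4.9e-05). Abcb11 was lower under every scaling (-0.92 with the hybridisation controls) and also relative to the products (-1.26, adjusted p = 1.5e-04). Slc27a5, which couples bile acids to coenzyme A, differed by -0.58 (SE 0.17, adjusted p = 0.019), and Abcb4, the canalicular phospholipid transporter, by -0.32. Both of these were positive in sign with the hybridisation controls, where Abcb4 was called higher. Neither Slc27a5 nor Abcb4 was called with the poly-A controls (adjusted p = 0.060 and 0.26, limma) or relative to the products (-0.17 and 0.089).

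**Figure D4:**
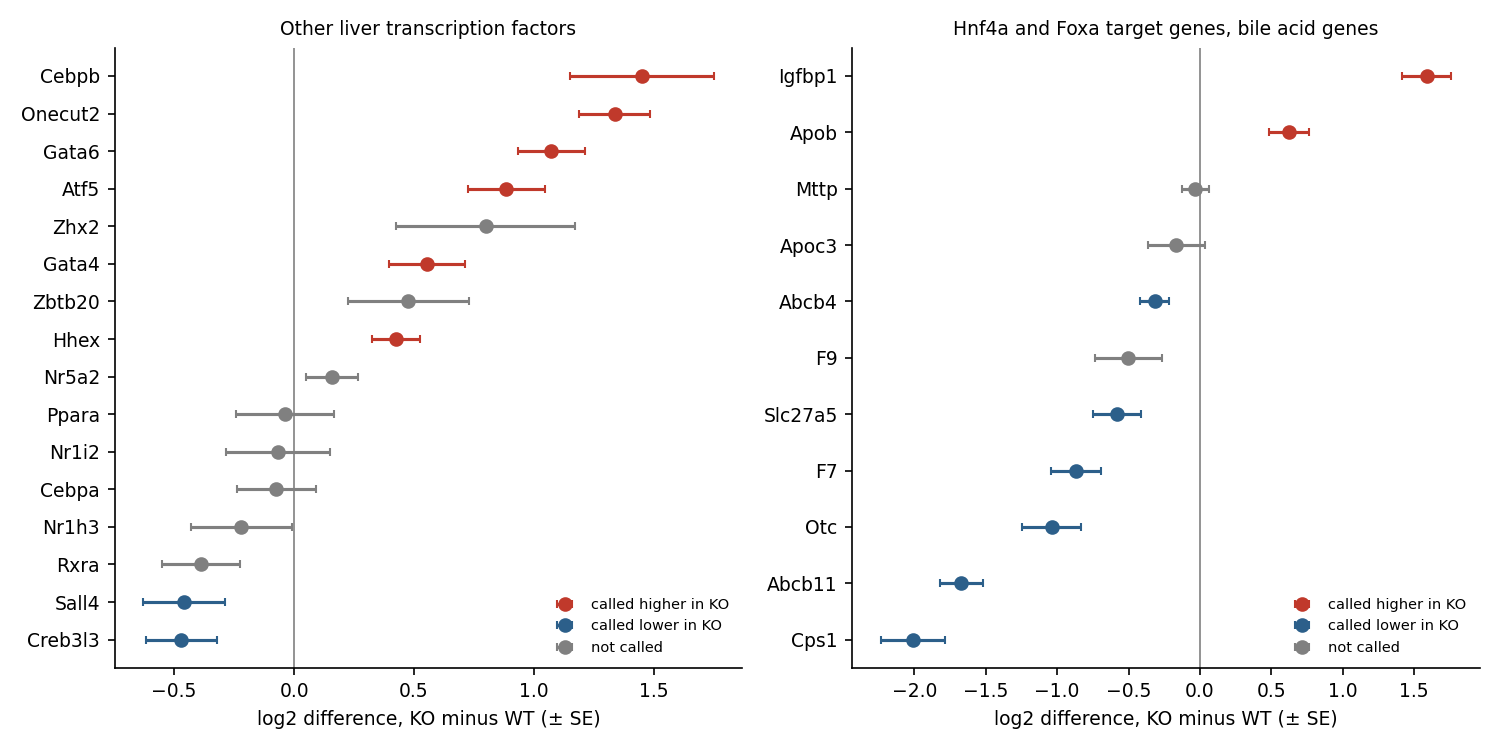
Log2 difference (KO minus WT) ± SE of the brightest probe set of each tested gene among other liver transcription factors and among HNF4A or FOXA targets and bile acid genes, coloured by call. Onecut2 and Cebpb lead the factors that rose, Igfbp1 the targets that rose, and Cps1 and Abcb11 lie lowest.

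Several members are also expressed outside hepatoblasts, so markers of other cells were read beside them. Of 11 endothelial and lymphatic genes 8 rose in KO and 3 did not pass, beside 34.4% of all tested probe sets called higher. Pecam1 (1.73, SE 0.19, adjusted p = 1.6e-04) and Flt1 (1.69, SE 0.23, adjusted p = 4.3e-04) led the rise. The calls numbered 5, all higher, after quantile normalization, 4 higher and 1 lower after the 75th percentile, and 11, all higher, with the hybridisation controls. Their summed signal was 8372 to 9954 in KO and 6294 to 6914 in WT. Of 9 stellate and mesenchymal genes 5 rose, beside the same 34.4%, and Lhx2 fell (-0.43, SE 0.13, adjusted p = 0.020). Among those that rose were Col1a1 (1.58, SE 0.19, adjusted p = 2.4e-04) and Pdgfrb (1.01, SE 0.11, adjusted p = 1.3e-04). This split was 4 higher and 1 lower after quantile normalization, 3 higher and 2 lower after the 75th percentile, and 8 calls, all higher, with the hybridisation controls. Their summed signal was 20650 to 26677 in KO and 17329 to 18107 in WT. With the deposited scaling both sums were higher in every KO array than in any WT array, as were 32.4% of all tested probe sets. The brightest probe sets of Prox1, which lymphatic endothelium expresses, and Tbx3, which mesenchyme can express, were higher in the same way. The part of these cells in the Prox1 and Tbx3 differences was not tested. The endothelial list was summed as a whole, without setting its lymphatic genes apart. No marker of either list was listed at 0.

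Of 7 heart genes, where Prox1 and Tbx3 are also active, 5 were below 100 in every array and 1, Actc1, was tested and did not pass (0.95, adjusted p = 0.13, limma). Their summed signal was 255 to 885 in KO and 242 to 322 in WT, with Actc1 at 105, 565, 128 and 342 in KO. Actc1 was highest in KO replicates 3 and 5, which had the lower Prox1 1437894_at signals of the KO arrays and the higher Tbx3 1448029_at signals, and its part in either difference was not tested. Of 9 pancreas, gut and lung genes, a check for other endoderm with FOXA factors, all 9 were below 100 in every array. Among 7 erythroid genes 6 fell and 1 rose, with Hbb-b2 at -5.12 (SE 0.34, adjusted p = 1.2e-05), Ank1 at -3.02 (SE 0.31, adjusted p = 1.0e-04) and Hbb-bh1 at 0.74 (SE 0.17, adjusted p = 0.0066). Their summed signal was 43778 to 52678 in KO and 95545 to 101968 in WT.

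As a description of pattern, the single-symbol genes whose log2 signal over the 8 arrays was most like each member were looked up among 11291 genes. Prox1 ran closest to Pip4p2 (Pearson r 0.996) and Zfr (0.992), Tbx3 to Ttc39b (0.995) and Fam222b (0.994), and Nr1h4 to Pop5 (0.995) and Tmem69 (0.995). For the members that did not separate the genotypes the values were lower: Foxa3 with Cth (0.970) and Nupr1 (0.970), Hnf4a with Ylpm1 (0.968) and Wdr62 (0.958), Foxa1 with Kdm8 (0.968) and Ddx11 (0.968), and Foxa2 with BC055324 (0.939) and Mterf4 (0.918). The 8 points share genotype and array scaling, and the highest of 11291 values was taken for each member.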

How the data were processed

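Total RNA of whole E14.5 livers was hybridized by the authors, who computed MAS5.0 signals. The deposited intensities are linear, with 1 value for each probe set on each array. MAS5 and R 3.0.2 are the tools in the submitters' processing notes, and no source used here gives the MAS5.0 software version. The methods name a smaller array of the same family than the one with 45101 probe sets in the deposited values. Genes were named from GEO's platform annotation, which can be old: 34945 probe sets have 1 symbol, 932 several, 9160 none, and 64 are controls. No array pair shared more than 1 identical value. Replicates are separate embryos per the methods, and precision is limited by their number.

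Values were log2-transformed without a pseudocount. Probe sets with a KO or WT mean above log2 of 100 were tested, controls left out, with limma (lmFit and eBayes, two-sided, genotype as the only term, Benjamini-Hochberg over all 23379, adjusted p under 0.05). Other scalings kept these probe sets. The 75th percentile, 18 hybridisation or 27 poly-A control probe sets, or the mean log2 signal of 16 hepatocyte products set the level of each array. A gene is represented by its brightest probe set. A group mean below 100 was set to 100 for the fold, which is then a lower bound with the deposited scaling only. Listed genes that lack a single-symbol probe set were not analysed here.

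The members and lists were chosen with earlier results of these data known. The rule for named genes took all member probe sets, the top 2 called risers and top 2 called fallers of each list, and the 2 genes most like each member. Outside it, Gata6, Atf5, Gata4, Hhex, F7, Abcb4, Nr0b2, Nr1i3, Cyp7a1, Dlk1, Alb, Afp, Actc1, Krt19, Epcam, Wt1, Upk3b, Hspa1b, Klf1, Xist and Kdm5d were picked with their values known. Alternatives were the scalings, pseudocounts of 16 and 64, testing every probe set, a minimum applied to the 8-array mean or raised to 200, trend and robust limma, the methods' t-test, the replicate number as a block, and leaving out each array. The fit was tested on simulated data. Fits used limma 3.58.1 in R 4.3.3. Tables and plots used matplotlib 3.10.9, numpy 2.4.6 and pandas 2.3.3 in Python 3.11.15.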

Additional observations from a re-analysis of the deposited data

Results flagged for a closer look

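No member probe set had an array standing apart from the other 3 of its group by Dixon's criterion. Among the genes named beside them, 2 did, both in WT replicate 3. Its log2 signal of Onecut2 was 7.72, a signal of 211, below the 7.99 to 8.03 of the other WT arrays (signals 255 to 262). Its log2 signal of Apob was 12.74, a signal of 6824, above the 12.20 to 12.28 of the other WT arrays (4698 to 4987). The gap to the nearest array was 0.875 and 0.840 of the group's range, above the criterion for 4 samples. In all, 86 groups were checked, and chance alone marks about 1 in 20.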

How the results depend on the processing

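Prox1 1437894_at and Tbx3 1448029_at kept direction and call in all 21 alternatives. Prox1 1421336_at and Tbx3 1437479_x_at kept them in the 19 that tested them, since a minimum applied to the 8-array mean or raised to 200 left them untested. The differences ran over 1.52 to 2.85 and 0.72 to 2.04 for Prox1 and 0.39 to 1.56 and 0.59 to 1.74 for Tbx3 (largest adjusted p = 0.042, limma). Nr1h4 was called in 19 of the 20 alternatives that tested it, with the exception of the hybridisation controls, and its direction held in all 20 (-1.28 to -0.17). A minimum of 200 left it and Hnf4a 1450447_at untested. Signs changed for members that had not passed. Hnf4a 1450447_at was -0.27 after quantile normalization and -0.12 after the 75th percentile, and Foxa2 -0.31 and -0.18. With the hybridisation controls Hnf4a 1427001_s_at was 0.55 (adjusted p = 0.030), Hnf4a 1427000_at 0.46 (adjusted p = 0.033) and Foxa1 0.68 (adjusted p = 0.026), and with the poly-A controls Foxa1 was 0.012. Foxa2 (0.83), Foxa3 (1.05) and Hnf4a 1450447_at (0.89) kept a positive sign with the hybridisation controls and were called higher there. Leaving out each array gave -0.079 to 0.26 for Hnf4a 1450447_at, -0.21 to 0.075 for Foxa1 and -0.026 to 0.17 for Foxa2. Lower calls appeared for Hnf4a 1427000_at after quantile normalization (-0.45, adjusted p = 0.049) and, with Hnf4a 1427001_s_at, after the 75th percentile (-0.56 and -0.46). The cause of these shifts was not tested, beyond each scaling other than quantile normalization moving every difference by its own fixed amount.

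With the hybridisation controls 18742 probe sets passed, against 12195, and 11 member probe sets, all higher, against 6. A minimum of 200 left 8 member probe sets to test and 3 called, all higher, beside 10372 called of all 18340 tested there. A minimum applied to the 8-array mean left 10 to test and 4 called, 3 higher and 1 lower, beside 10864 of all 21313. Among the other liver factors 5 passed with no filter and 4 by the methods' t-test after Benjamini-Hochberg, against 8. Among the products 1 passed after quantile normalization, 7 with the hybridisation controls, 6 with the poly-A controls and 7 with no filter, against 12. Leaving out each array gave 10625 to 12100 probe sets, 6 member probe sets each time, 6 to 9 other factors, 8 to 12 products and, relative to the products, 6 to 9 member probe sets. The methods' t-test called 6 member probe sets, 5 higher and 1 lower, before and after adjustment, beside 12245 and 9414 of all 23379 tested.

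Replicate numbers 2, 3 and 4 occur in both groups, but same-numbered arrays did not deviate together (correlations -0.00084, -0.082 and -0.027), and 0 of 3 KO arrays correlated best with the WT array of its number. With the number as a replicate block, 7780 probe sets passed, 5 other factors and 4 products. Hnf4a 1421983_s_at was not called (0.59, adjusted p = 0.085), Foxa1 had a difference of 0.045, and the member probe sets relative to the products gave 7 calls, all higher. Signals near 100 limit Onecut1, the dim Prox1 and Tbx3 probe sets and most bile acid genes.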

Other observations

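Surface and epithelial genes of hepatoblasts moved in both directions. Of 7 tested, 3 rose in KO, 1 fell and 3 did not pass. There were 3 calls, all higher, after quantile normalization, 2 higher and 1 lower after the 75th percentile, and 7, all higher, with the hybridisation controls. Lgr5, a receptor of R-spondins, had 250, 187, 216 and 252 in KO, against 93.5, 34.0, 69.7 and 119 in WT, at least 2.25-fold higher (log2 difference 1.65, SE 0.34, adjusted p = 0.0040, limma). It passed the minimum only through its KO mean. Id3, an inhibitor of helix-loop-helix factors, rose by 0.66 (SE 0.14, adjusted p = 0.0046, limma) and Dlk1, the surface protein used to isolate hepatoblasts, by 0.34. The Dlk1 call was lost after the 75th percentile (0.070) and with the poly-A controls. Krt8, a simple epithelial keratin, fell by 0.31 (SE 0.11, adjusted p = 0.047, limma). It was not called after quantile normalization or with the poly-A controls, and was called higher with the hybridisation controls (0.44, adjusted p = 0.0095, limma).

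Of 5 ductal plate and bile duct genes with a probe set, 2 were tested (median 0.62) and neither passed limma after adjustment. Krt19, a bile duct keratin, differed by 0.88 (adjusted p = 0.062, unadjusted p = 0.034) and Epcam, an epithelial adhesion protein, by 0.35 (adjusted p = 0.29). Of 5 mesothelial genes 2 were tested (median 0.12), Wt1 at 0.22 (adjusted p = 0.37, limma) and Upk3b at 0.024 (adjusted p = 0.89, limma). Of 8 macrophage genes 1 passed, Timd4, a phosphatidylserine receptor of tissue macrophages, which fell by 1.23 (SE 0.13, adjusted p = 1.1e-04, limma).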
